A study of Mus musculus with 32 samples.

Results

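Heat shock proteins and their co-chaperones were examined in microglia sorted from injured mouse cortex. The set held 78 of the 55385 genes in the deposited tables, out of 21856 protein-coding ones. They were chosen by gene symbol as the Hsp70 and Hsp110 proteins, the small heat shock proteins, both cytosolic Hsp90 genes, the mitochondrial chaperonin, the J proteins of the A, B and C groups, and the subunits of the cytosolic chaperonin TRiC with their paralogs. Hspa5, Dnajb9, Dnajb11 and Dnajc3, which serve the endoplasmic reticulum, were left out.

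All mice were C57BL/6 animals carrying 1 Cx3cr1CreER allele, in which a tamoxifen-inducible recombinase is expressed from the Cx3cr1 gene. At 8 to 10 weeks of age they received tamoxifen at 180 mg/kg for 5 days in a row, given, per the labels, so that microglia make the fluorescent protein EYFP, and then had a cortical stab wound. At 1, 4, 7 or 14 days after the wound, EYFP-positive cells of females and of males were sorted from the wounded tissue or from the matching place in the opposite, non-injured hemisphere, and their polyadenylated RNA was sequenced. The non-injured side therefore came from mice that had a wound elsewhere and had received tamoxifen, and cells outside the microglia that use the Cx3cr1 promoter could also carry the label.

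Each of the 16 groups (a day, a sex and a side) was deposited as 2 columns, which the series text calls biological replicates. Within a group the columns were almost as alike as counting noise allows (median chi-square per gene 0.475 to 0.639, where counting noise gives 0.455), whereas females and males of the same day and side gave 31.6 to 113. They were summed into 16 libraries that form 8 day-by-sex pairs. The labels name no animals, so p-values measure only the spread between these libraries. Library totals ran from 20864031 to 55378880 counts, and 14720 to 40940 genes were detected per library. The sorted cells carried microglial markers at a summed 6946 to 59061 CPM (counts relative to the TMM-scaled library total), and Cx3cr1, of which 1 copy is replaced in these mice, was low at 2.84 to 219 CPM. In bulk RNA, fewer cells of a type and less RNA per cell cannot be told apart. The day 4 male non-injured library stood apart, with 25.7% mitochondrial counts and neuron markers at a summed 2983 CPM, and values without its pair are given where they change a call.

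Chaperones bind unfolded or partly folded proteins and help them fold, refold, cross membranes or be degraded. Hsp70 works in cycles of ATP hydrolysis that J proteins start and exchange factors such as the Hsp110 proteins end, Hsp90 acts on client proteins such as kinases and steroid receptors, and the ring-shaped chaperonins enclose their clients. TRiC folds actin and tubulin in the cytosol, and Hsp60 with Hsp10 does the same kind of work in mitochondria. In stressed cells heat shock factor 1 switches on a subset of these genes through heat shock elements, which are repeats of the unit GAA in alternating orientation. In microglia, tissue dissociation is also known to induce such genes.

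Promoter windows of 300 bases, from 250 before the start site, were at hand in RefSeq for 62 of the 78 genes (build GRCm38.p6). A heat shock element of 3 units (GAA, TTC and GAA, or TTC, GAA and TTC, with 2 bases of any kind between neighbours, which covers both strands) stood in 0.603% of all 32851 windows. Some genes have more than 1 window. Of the 81 windows of the chaperone genes, 6 (7.41%) held it, and they belong to 4 of the 62 genes, namely Hspd1, Hspe1, Hsph1 and Dnajb6. An element of 2 units (GAA and TTC in either order with the same spacing, also contained in the longer one) stood in 15.1% of all windows. It stood in 22 of the 81 windows of the chaperone genes (27.2%), which belong to 20 of the 62 genes. The sequences below come from some of the genes described later and let their elements be compared. Not all of these genes were called, and Hsph1 is not shown. Capitals mark the matches. Hspd1 and Hspe1, the genes of Hsp60 and Hsp10, are neighbours on chromosome 1 that are read in opposite directions, and the stretch between their start sites holds 2 overlapping matches. It is given at chr1:55088053-55088082 on the plus strand, 95 to 66 bases before the Hspe1 start, inside the untranslated first exon of a longer Hspd1 transcript.
Hspe1: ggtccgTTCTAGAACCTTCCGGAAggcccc
The Dnajb6 element lies at chr5:29735844-29735873 on the plus strand, 54 to 25 bases before the start, also within the untranslated exon of a longer transcript. The Cct5 stretch, chr15:31601862-31601891 on the minus strand, and the Cct2 stretch, chr10:117063376-117063475 on the minus strand and intronic in a longer Cct2 transcript, hold 1 element of 2 units each.
Dnajb6: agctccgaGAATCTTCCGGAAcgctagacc
Cct5: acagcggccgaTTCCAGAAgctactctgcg
Cct2: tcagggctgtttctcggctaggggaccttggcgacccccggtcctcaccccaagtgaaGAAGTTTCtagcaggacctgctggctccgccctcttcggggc
The 150 bases before the starts of Hspa1a (chr17:34972157-34972306) and Hspa1b (chr17:34959239-34959388), both on the minus strand, differed at 1 position and held 1 element of 2 units. The same length before Hspb1 (chr5:135887769-135887918, plus strand) held 2.
Hspa1a: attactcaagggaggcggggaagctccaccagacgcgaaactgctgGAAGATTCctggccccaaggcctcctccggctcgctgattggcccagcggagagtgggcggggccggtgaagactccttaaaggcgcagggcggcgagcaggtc
Hspa1b: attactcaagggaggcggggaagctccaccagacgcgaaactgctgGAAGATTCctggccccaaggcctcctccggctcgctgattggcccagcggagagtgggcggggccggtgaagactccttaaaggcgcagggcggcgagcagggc
Hspb1: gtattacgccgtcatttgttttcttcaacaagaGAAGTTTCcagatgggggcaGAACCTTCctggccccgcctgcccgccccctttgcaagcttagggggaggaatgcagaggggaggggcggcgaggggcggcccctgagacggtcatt
Of the 16 genes with a window that rose at the wound in the mean over days (below), 2 had the longer and 5 the shorter element. Of the 6 that fell, 0 and 2 did, and of the 40 that were not called or not tested, 2 and 13 did. A match is a description of letters in this window and not a measured binding site.

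Levels were compared between genes per transcript length, as TPM. Hspa8, the constitutive cytosolic Hsp70, was the most abundant of the 78, with a median of 1250.5 TPM over the 16 libraries and a range from 581 to 2834. Hsp90ab1 (349 TPM) and Hsp90aa1 (225 TPM) followed. Cct5, Cct7 and Cct8 came next at medians of 116, 103 and 101 TPM, and their ranges over libraries overlapped widely. The stress-inducible Hsp70 gene Hspa1a was far lower, at a median of 16.6 TPM, and ran from 1.36 to 144. Of the 78 genes, 73 had enough counts to be tested, and Dnajb8, Dnajc5b, Dnajc5g and Hspb9 were among those that had not. Another 13 were tested at a mean under 5 CPM.

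The main comparison asked which of these genes differed at the wound. Each wound library was set against the non-injured library of its day and sex, in edgeR's quasi-likelihood test with Benjamini-Hochberg adjustment over all 28597 genes tested, and a gene was called at an adjusted p under 0.05. In the mean of the 4 day effects, 22 of the 73 genes were higher at the wound, where 7.76% of all genes tested were, and 6 were lower, where 7.96% were. The median log2 change of the 73 was 0.41, against -0.32 over all genes tested. Abundant genes were called higher more often. Among genes averaging 10 CPM or more, 20.6% were called higher and 9.49% lower. In that range lay 51 of the chaperone genes, of which 21 were higher and 3 lower. Their median log2 change was 0.53, against 0.20 for all 9021 such genes. The split depended on the scaling. It was 21 higher and 8 lower with median-ratio factors, where 6.78% and 9.88% of all genes were called. DESeq2 called 23 higher and 9 lower, and 20.7% of all genes in either direction. It was 12 and 11 with library totals alone, where 4.52% and 13.9% were called. In limma on log2(TPM + 1) it was 7 and 12, where 3.82% and 11.5% were called, and the median of the 73 was -0.08. Of the 22 genes, Tcp1, Cct3, Cct5, Hspd1, Hspe1, Dnajc15 and Dnajc19 were the 7 still called higher there. The median over all genes tested moved with it, to -0.44 with median-ratio factors, -0.65 with library totals and -0.17 in the TPM fit. Relative to that median, the 73 lay 0.72 higher with TMM, 0.69 higher with library totals and 0.09 higher in the TPM fit. The TPM fit adds 1 before the log, which shrinks changes of low genes, so its value is not on the same scale. With TMM the medians among genes averaging 10 CPM or more, 0.53 and 0.20, lay closer together than those over all genes tested.

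Single pairs weighed on the count. Without the day 4 male pair, 21 of 75 genes tested were higher and 4 lower, where 6.17% and 4.09% of all genes were. Leaving out the day 1 female pair left 6 called in either direction (4.52% of all genes), and leaving out the day 1 male pair left 11 (6.81%). It was 14 when the day 7 females were left out (7.46%) and 11 when the day 7 males were (5.74%). Cct3, Cct5, Hspa8, Hspd1 and Hspe1 were called in each of the 8 fits that left out 1 pair. Tcp1 was called in 7 of them, Cct7, Cct8, Hspa4 and Hsp90ab1 in 6, Cct2 and Cct6a in 4, Hspa9 in 3, Cct4 in 2 and Hsp90aa1 in 1. Of the J proteins that were higher, Dnajc15 was called in 5, Dnajc2 and Dnajc13 in 4, Dnajc19 in 3, Dnaja2 in 2 and Dnajc9 in 1. The 4 female pairs alone gave 17 higher and 5 lower, where 9.73% and 8.36% of all genes were called, and the 4 male pairs alone gave 8 and 4, where 5.84% and 8.79% were.

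**Figure D1:**
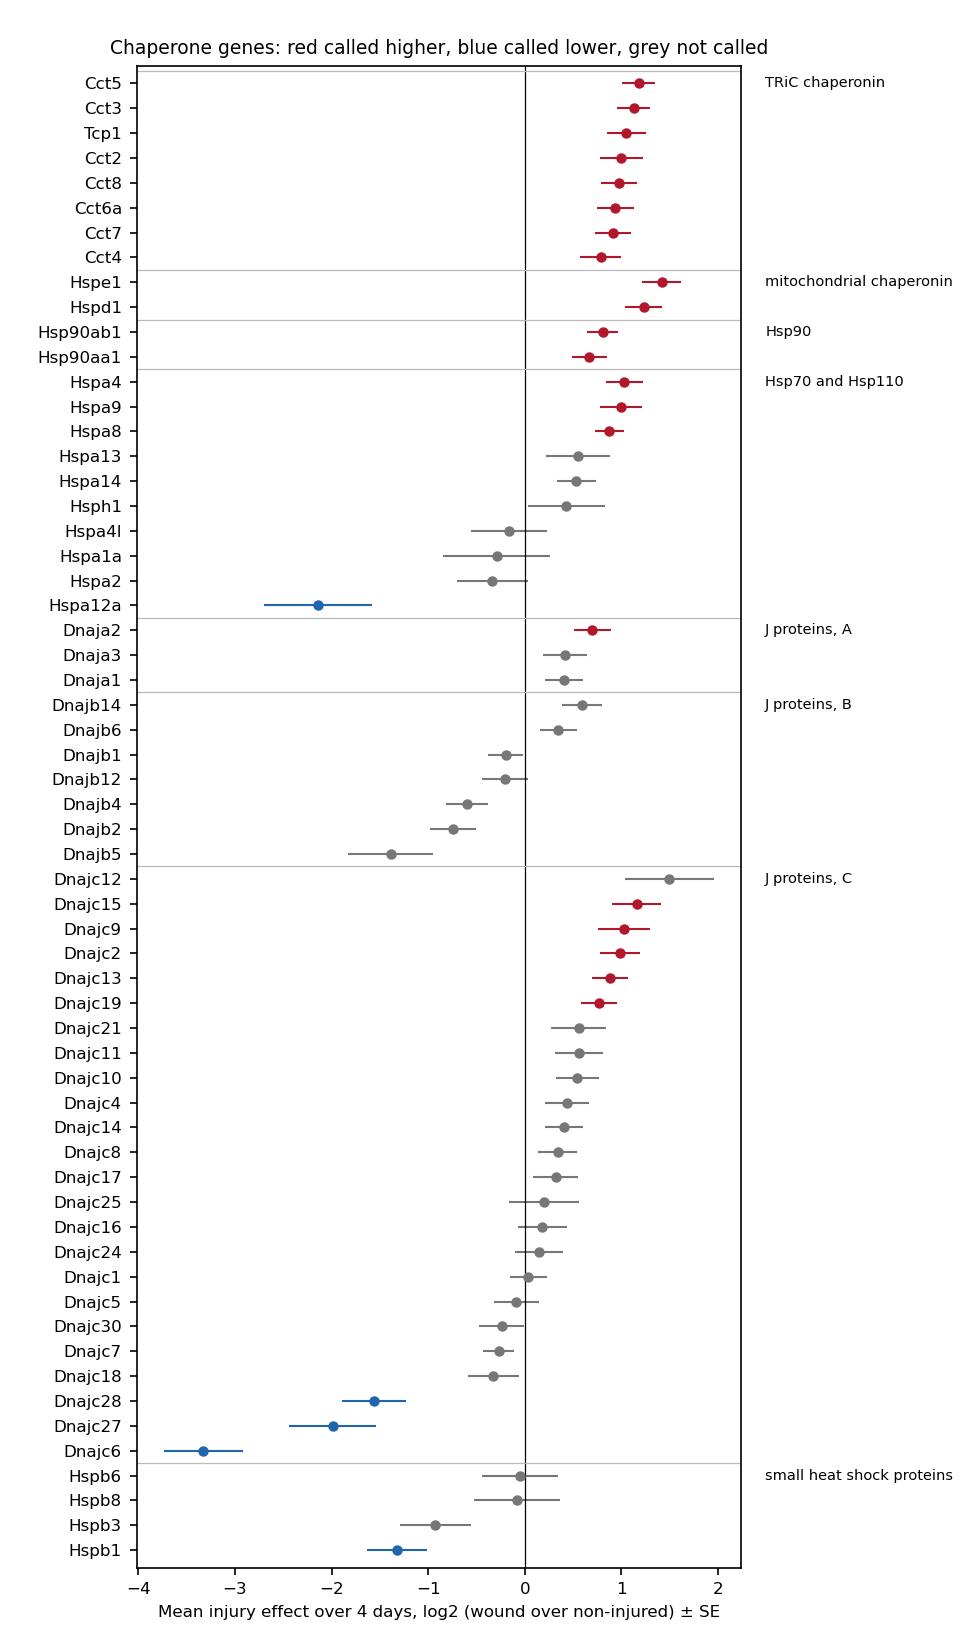
Mean injury effect over the 4 days for the 60 genes tested at a mean of at least 5 CPM, grouped by class; points are log2 changes (wound over non-injured) from edgeR, bars are standard errors, and colour marks the call at an adjusted p under 0.05. The 8 TRiC subunits lie between 0.79 and 1.18, and Dnajc6 is farthest to the left at -3.33.

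All 8 subunits of TRiC were higher at the wound in the mean over days. Their log2 changes were 1.05 for Tcp1, 1.00 for Cct2, 1.13 for Cct3, 0.79 for Cct4, 1.18 for Cct5, 0.94 for Cct6a, 0.91 for Cct7 and 0.97 for Cct8, with standard errors from 0.17 to 0.22 and adjusted p-values from 0.00245 to 0.0349. Cct5 illustrates the pattern. It went from 137 CPM on the non-injured side to 648 at the wound in day 1 females and from 99.5 to 270.0 in day 1 males. At day 4 it went from 104 to 278 in females and from 70.3 to 158 in males, and at day 7 from 74.2 to 215 and from 127 to 245. At day 14 the steps were small, from 189 to 257 in females and from 75.9 to 88.4 in males. Cct5 was above its partner in each of the 8 pairs, although the ranges of the sides overlapped.

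The log2 ratios of the subunits were closest together in females at day 1, between 1.88 and 2.23, and at day 4, between 1.12 and 1.47. They lay between 0.86 and 1.56 in day 1 males, between 0.95 and 1.59 in day 7 females, between 0.39 and 0.94 in day 7 males, and between 0.03 and 0.67 in day 14 males. The spread was widest in day 14 females, from -0.90 to 0.79, and in day 4 males, from 0.19 to 1.38. Of the 64 values of a subunit in a pair, 62 were above 0 on TMM-scaled CPM, the exceptions being Cct2 and Cct4 in day 14 females, but 53 were with library totals alone and 49 on TPM. The day 7 male pair flipped under those scalings, with 1 of 8 subunits above 0 in either, and a median log2 ratio of -0.13 with library totals and -0.22 on TPM against 0.69 on TMM-scaled CPM. The TMM factors, by which library totals are multiplied, differed most between partners at day 7. They were 1.25 (non-injured) and 0.71 (wound) in males and 1.45 and 0.72 in females. Set against the median ratio of the 9021 more abundant genes in the same pair, 62 of the 64 values were above it with TMM, 62 with library totals and 57 on TPM. In the whole fit, 6 of the 8 subunits stayed called with library totals and 3 with TPM, and all 8 log2 changes were above 0 in each. Cct6b and Cct8l1, the paralogs of TRiC subunits in the set, were near the limit of detection at means of 0.45 and 0.23 CPM and were not called.

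Hspd1 and Hspe1, whose shared promoter is shown above, rose together. Hspd1, mitochondrial Hsp60, ran from 41.00 to 149 CPM with a median of 81.3 on the non-injured side and from 99.8 to 382 CPM with a median of 198 at the wound. It was higher in 8 of 8 pairs, and its log2 change was 1.23 ± 0.19 (SE, adjusted p = 0.00333). Hspe1, its partner Hsp10, ran from 11.7 to 81.7 CPM with a median of 18.7 on the non-injured side and from 28.2 to 183 CPM with a median of 51.5 at the wound, again higher in 8 of 8 pairs, at 1.42 ± 0.20 (adjusted p = 0.00222). Both sides were highest for Hspe1 in day 4 males, at 81.7 and 183 CPM. The annotated ends of the genes overlap over a short stretch, and the library kit loses strand information, so reads there cannot be told apart. Hspa9, the mitochondrial Hsp70, was also higher in 8 of 8 pairs, by 0.99 ± 0.22 (adjusted p = 0.0153). Of the 24 values of Hspd1, Hspe1 and Hspa9 in a pair, 24 were above 0 on TMM-scaled CPM, 23 with library totals and 21 on TPM. Hspa9 went from 83.9 to 309 CPM in day 1 females but only from 213 to 218 in day 4 males. On the mitochondrial side of the J proteins, Dnajc19, part of the motor that pulls proteins into mitochondria, was higher by 0.77 (adjusted p = 0.0233), and Dnajc15, a related protein of the inner membrane, by 1.16 (adjusted p = 0.0145). With library totals Dnajc15 stayed called (0.79) and Dnajc19 did not (0.40, adjusted p = 0.151, edgeR).

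**Figure D2:**
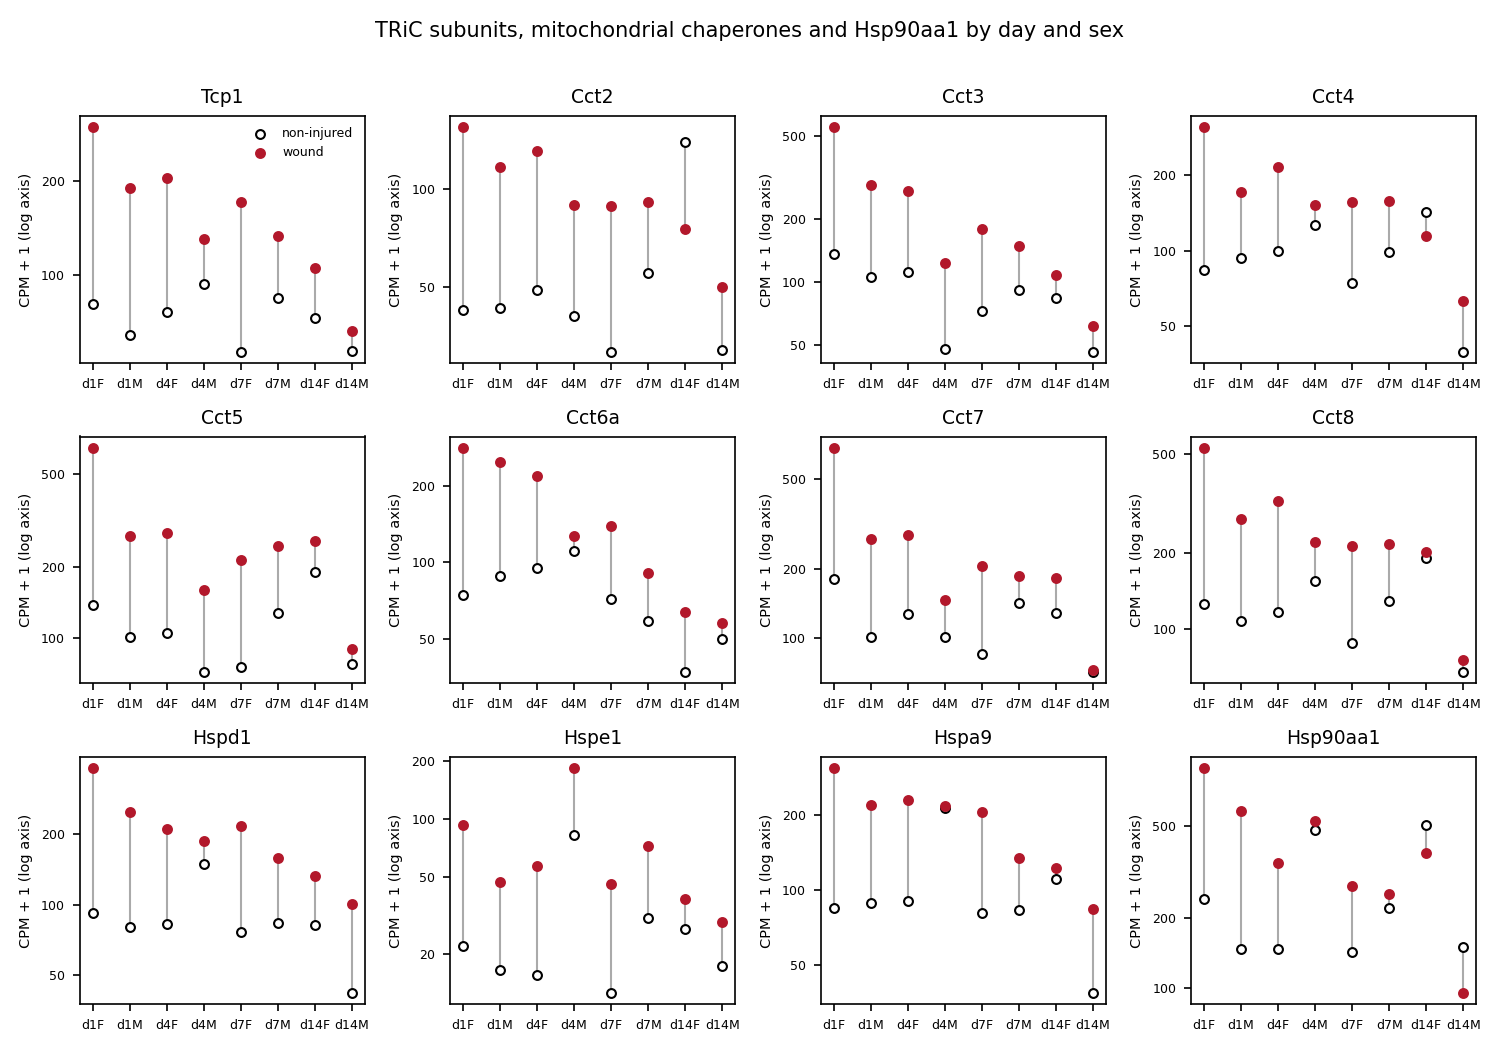
CPM + 1 (log axis) of the TRiC subunits, Hspd1, Hspe1, Hspa9 and Hsp90aa1 in each day-by-sex pair (d1F is day 1 female); open circles are non-injured libraries, red circles wound libraries, and grey lines join a pair. On TMM-scaled CPM, wound values lie above their partners in 8 of 8 pairs for Cct5, Hspd1 and Hspe1, and below in the day 14 pairs for Hsp90aa1.

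The constitutive cytosolic chaperones were higher too. Hspa8 ran from 817 to 2529.6 CPM with a median of 1481 on the non-injured side and from 1363 to 5324 CPM with a median of 2851 at the wound. It was higher in 8 of 8 pairs, at a log2 change of 0.87 ± 0.15 (adjusted p = 0.00516). Hsp90ab1, the constitutive Hsp90, was also higher in 8 of 8 pairs, with a median of 529 CPM on the non-injured side, 825 CPM at the wound and a log2 change of 0.80 ± 0.16 (adjusted p = 0.00929). On other scales the changes were smaller. With library totals they were 0.51 for Hspa8, which stayed called, and 0.44 for Hsp90ab1, which did not (adjusted p = 0.0556). In the TPM fit neither was called, at 0.36 (adjusted p = 0.302) and 0.22 (adjusted p = 0.422). Hspa4, an exchange factor of the Hsp110 family, was higher in 7 of 8 pairs, by 1.03 ± 0.20 (adjusted p = 0.00774), and lower in day 14 females, from 107 to 65.5 CPM. Its change was 0.67 with library totals and 0.52 in the TPM fit, where it was not called (adjusted p = 0.0856). Hspa14, a ribosome-associated Hsp70, was above its partner in 8 of 8 pairs, with medians of 36.6 CPM on the non-injured side and 60.7 at the wound, but was not called (0.53 ± 0.20, adjusted p = 0.11). Hspa13, a microsomal Hsp70 (0.55 ± 0.33), and Hspa2, known from the testis (-0.34 ± 0.37), were not called either. Hspa1l, a neighbour of Hspa1a in the genome, had few counts and was not called (2.27 ± 1.21).

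Hsp90aa1, the more inducible Hsp90, changed most at day 1. It went from 241 to 889 CPM in females and from 146 to 582 in males. At day 4 it went from 146 to 345 in females and from 483 to 525 in males, and at day 7 from 142 to 273 and from 219 to 253. At day 14 the wound was the lower side in each sex, 384 against 503 in females and 94.3 against 149 in males. The log2 change was 1.94 ± 0.37 at day 1 (adjusted p = 0.0481) and 0.67 ± 0.18 in the mean over days (adjusted p = 0.0356). Hspd1 and Hspe1 were of similar size at day 1, at 1.86 to 1.87, and were not called there. For Hsp90aa1 the other scales gave less. The mean effect was not called with library totals (0.30, adjusted p = 0.247) or in the TPM fit (0.19, adjusted p = 0.528). The day 1 effect exceeded the mean of the later days by 1.69, a difference that edgeR did not call (adjusted p = 0.409, 0% of all genes called) and DESeq2 did (1.99, adjusted p = 0.00205, 0.682% of all genes called).

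Taken by day, few of the genes passed the test, which then rests on 2 pairs a day. At day 1 the called ones were Hsp90aa1 and Cct5 (1.84 ± 0.35, adjusted p = 0.0487), that is 2 of 73, where 1.05% of all genes were called. At day 4 only Dnajc6 was called (-3.36 ± 0.66, adjusted p = 0.0387), where 2.05% of all genes were. At day 7 edgeR called 0 of 73 (0.374% of all genes), and DESeq2 called 4 (5.94% of all genes). An unadjusted p under 0.05 was seen for 25 of the 73 and for 5476 of all 28597 genes. At day 14 edgeR called 0 of 73 (0.0594% of all genes), and DESeq2 called 3 (5.81% of all genes). An unadjusted p under 0.05 was seen for 13 of the 73 and for 4723 of all 28597 genes, a similar share. DESeq2 called 20 at day 1 (7.12% of all genes) and 8 at day 4 (5.03%). The day 1 count in edgeR was 0 without either day 1 pair, either day 7 pair or the day 14 male pair, and it was 9 when the day 4 males and 12 when the day 4 or the day 14 females were left out. Of all genes, those fits called 0% without either day 1 pair, 0.148% and 0.137% without the day 7 females and males, 0.937% without the day 14 males, 1.89% without the day 4 males, and 2.31% and 1.70% without the day 4 and day 14 females. The median log2 change of the TRiC class, paralogs included, was 1.71 at day 1, 0.91 at day 4, 1.02 at day 7 and 0.23 at day 14. The median over all 9021 genes averaging 10 CPM or more also moved with the day. It was 0.01, 0.25, 0.53 and -0.01 at days 1, 4, 7 and 14. A difference between days was called for 0 of the 73 genes in edgeR (0% of all genes) and for 1 in DESeq2 (0.546% of all genes). An unadjusted p under 0.05 was seen for 4 of the 73 and for 1818 of all 28597 genes, a similar share. Among the wound libraries alone edgeR called 0 of 70 across days (0.104% of all genes), and DESeq2 called Hspa1a (adjusted p = 0.00503, 1.22% of all genes). An unadjusted p under 0.05 was seen for 4 of the 70 and for 1429 of all 22040 genes tested there, a similar share. Among the non-injured libraries edgeR called 0 of 71 (0% of all genes), and DESeq2 called 0 (0.0325% of all genes). An unadjusted p under 0.05 was seen for 1 of the 71 and for 352 of all 24622 genes tested there, a similar share.

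Of the remaining J proteins, those of the A and C groups were partly higher. On TMM-scaled CPM, Dnaja2, a cytosolic Hsp70 co-chaperone, was higher in 8 of 8 pairs, by 0.70 ± 0.19 (adjusted p = 0.0388), and Dnaja1 was not called (0.41 ± 0.19). Dnajc2, which sits at the ribosome, was higher by 0.99 (adjusted p = 0.0115), Dnajc9, a histone chaperone, by 1.03 (adjusted p = 0.0304), and Dnajc13, an endosomal protein, by 0.88 (adjusted p = 0.0116). On other scales Dnaja2, Dnajc2, Dnajc9 and Dnajc13 were not called. With library totals they were at 0.33, 0.62, 0.66 and 0.52, and in the TPM fit at 0.16, 0.51, 0.48 and -0.05. Dnajc13 was thus the only one of the 28 called genes to change sign under any alternative. Of the 10 tested J proteins of the B group, edgeR called 0 in the mean over days, with 5 at an unadjusted p under 0.05, namely Dnajb2 (-0.75), Dnajb4 (-0.59), Dnajb5 (-1.39), Dnajb14 (0.60) and Dnajb7 (-1.61, at a mean of 0.602 CPM). Of all 28597 genes, 8185 were under that unadjusted p. DESeq2 called 3 of the 10, where it called 20.7% of all genes. These were Dnajb2, Dnajb4 and Dnajb5, all lower. The other J proteins of the B group lay between -0.20 (Dnajb12) and 0.35 (Dnajb6), apart from Dnajb3 at a mean of 0.440 CPM. Dnajb6, a suppressor of protein aggregation whose element is shown above, had medians of 85.1 CPM on the non-injured side and 137 at the wound and was higher in 5 of 8 pairs. Of the 17 tested C group members that were not called, Dnajc7, which bridges Hsp70 and Hsp90, was under its partner in 8 of 8 pairs at a small change (-0.27 ± 0.17). Dnajc5, the synaptic vesicle protein known as cysteine string protein, was at -0.09 ± 0.23, and Dnajc8, linked to RNA splicing, at 0.34 ± 0.20. Dnajc10, a disulphide reductase of the endoplasmic reticulum (0.54 ± 0.22), and Dnajc11, a mitochondrial membrane protein (0.56 ± 0.25), did not pass the threshold. Dnajc12, a co-chaperone of the aromatic amino acid hydroxylases, was above its partner in 8 of 8 pairs but missed the threshold (1.50 ± 0.46, adjusted p = 0.0554). DESeq2 called it (1.78, adjusted p = 0.0133). In day 14 females it went from 0.041 to 17.4 CPM, a log2 ratio of 4.15, against 0.25 to 1.51 in the other pairs.

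**Figure D3:**
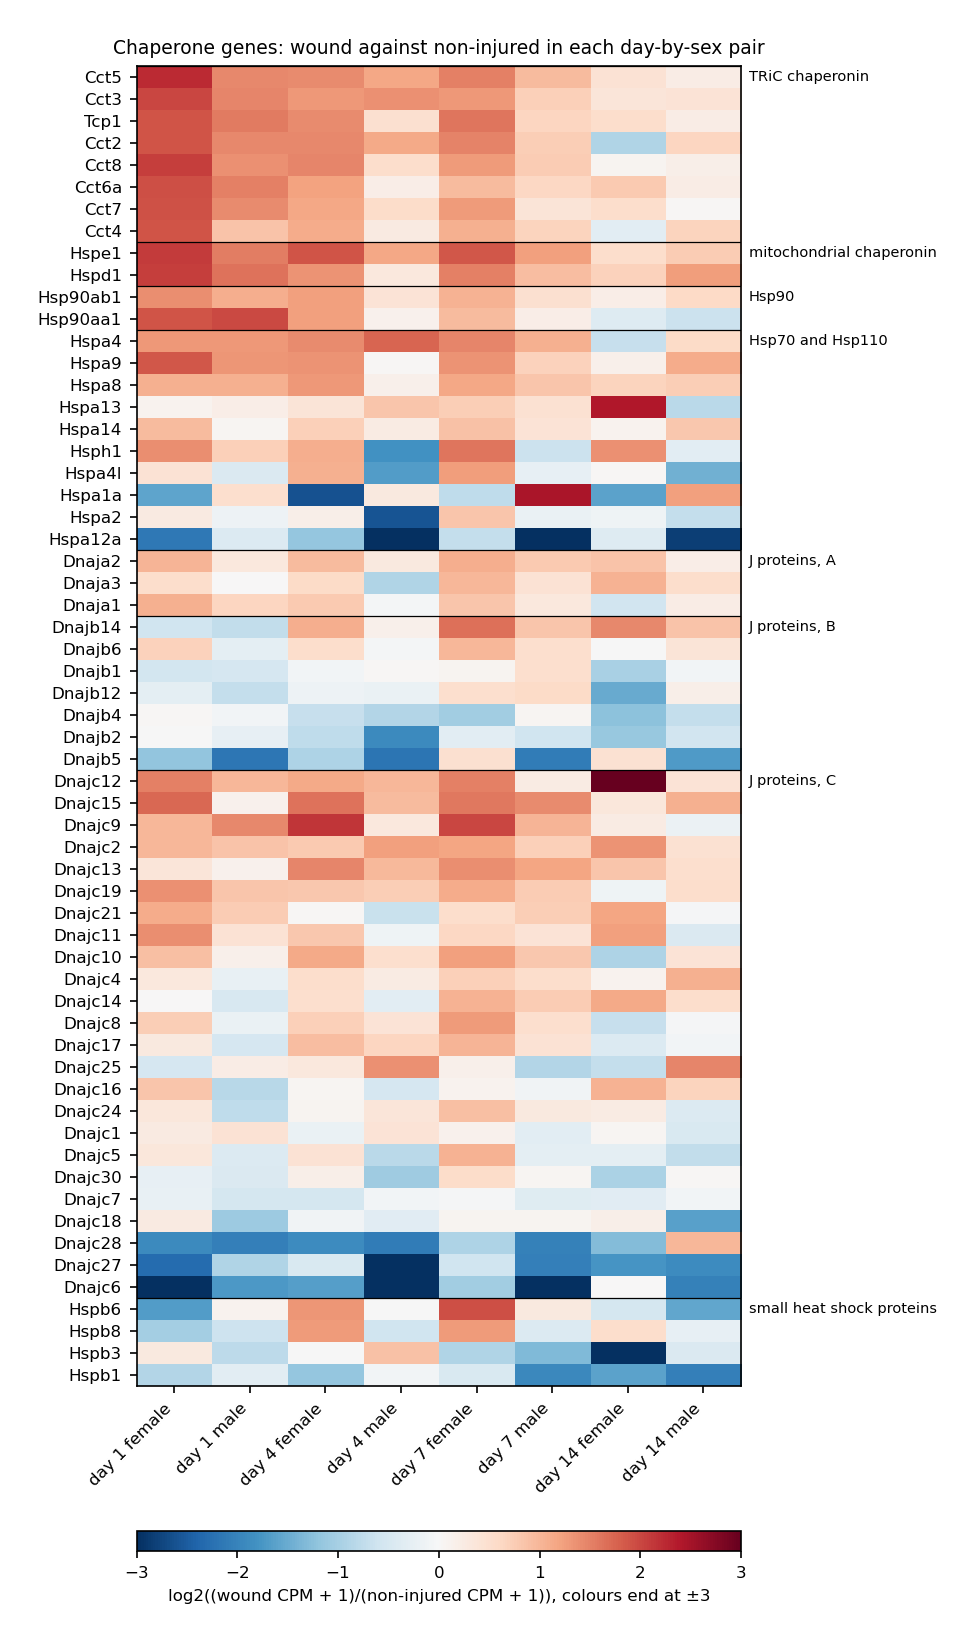
Log2 ratio of wound to non-injured CPM, each with 1 CPM added, in the 8 day-by-sex pairs for the 60 genes tested at a mean of at least 5 CPM, grouped by class; red is higher at the wound and colours end at ±3. The TRiC subunits, Hspd1 and Hspe1 are red in the pairs of days 1, 4 and 7 on this TMM-scaled CPM, although 7 of the 8 subunits are below 0 in day 7 males with library totals or TPM, and Hspa1a alternates between blue in females and red in males.

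On TMM-scaled CPM, 18 of the 73 genes exceeded their non-injured partner in each of the 8 pairs, which 5.12% of all genes did, and 6 stayed under it in each, which 4.06% did. Of the 73, 19 had their highest CPM in the day 1 female wound library, which held the highest value of 5.41% of all genes, among them Tcp1, Cct2 to Cct8, Hspd1, Hspa9, Hspa8 and both Hsp90 genes. Another 14 were highest in the day 4 male non-injured library, which held the highest value of 14.82% of all genes.

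Several stress-inducible genes were not called. Dnajb1, the main co-chaperone of inducible Hsp70, ran from 49.97 to 233 CPM with a median of 109 on the non-injured side and from 46.9 to 131 CPM with a median of 114 at the wound, and was not called (-0.20 ± 0.18, adjusted p = 0.539), although the TPM fit called it lower (-0.68, adjusted p = 0.0370) and it was at -0.56 with library totals. Hsph1, the inducible Hsp110, ran from 8.42 to 146 CPM with a median of 36.9 on the non-injured side and from 23.5 to 134 CPM with a median of 48.3 at the wound, and was not called either (0.43 ± 0.40, adjusted p = 0.567). The sides overlapped in each.

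Hspa1a, the inducible Hsp70, lay on opposite sides of its partner in females and males. In females it went from 234 to 77.1 CPM at day 1, from 131 to 20.8 at day 4, from 79.1 to 46.6 at day 7 and from 15.8 to 4.55 at day 14. In males it went from 38.3 to 54.6, from 33.7 to 41.3, from 10.7 to 62.7 and from 2.01 to 6.02. The wound was thus lower in 4 of 4 female pairs and higher in 4 of 4 male pairs, and each series was lowest at day 14. Its mean effect over the sexes was not called (-0.29 ± 0.55). Fits of 1 sex alone called it lower in females (-1.89, adjusted p = 0.0103) and higher in males (1.29, adjusted p = 0.0476). The sex difference, female minus male, was -2.88 ± 0.40, with an adjusted p of 0.101 in edgeR, above the threshold, and of 1.35e-11 in DESeq2. Over all 73 genes edgeR called 0 sex differences (0% of all genes), and DESeq2 called 1 (0.423% of all genes). An unadjusted p under 0.05 was seen for 8 of the 73 and for 2094 of all 28597 genes. Hspa1a and Hspa1b share 99.4% of their coding bases, so reads may be split between them uncertainly. Hspa1b took 417 counts against 30816 for Hspa1a, and their sum kept the same order in every pair.

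Beside Hspa1a, the summed level of 11 immediate early genes, which respond to tissue dissociation, was under its partner in 5 of 8 pairs. In females it went from 14062 to 9237 CPM at day 1 and from 15613 to 10338 at day 4. In these pairs Hspa1a was lower too, as it was in day 7 females, where the sum went from 15340.0 to 14629. In males both were higher at the wound at day 4, with a sum of 5075 against 2388, and at day 7, with 9359 against 2595. In the other 3 pairs they went opposite ways. The sum was lower while Hspa1a was higher in males at day 1, from 12481 to 7318, and at day 14, from 3088 to 2579, and in day 14 females it was slightly higher, from 6681 to 6747, while Hspa1a was lower. Its part in the Hspa1a values was not tested.

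**Figure D4:**
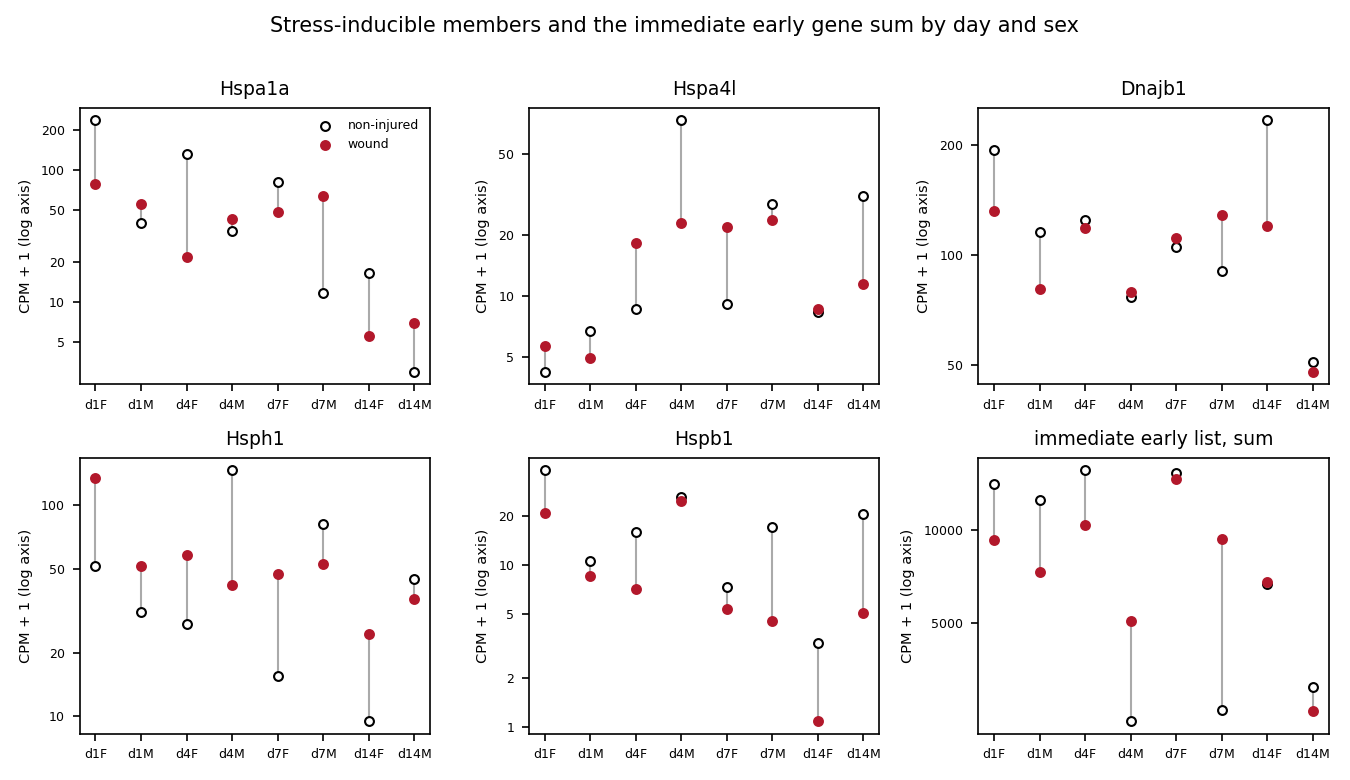
CPM + 1 (log axis) of Hspa1a, Hspa4l, Dnajb1, Hsph1 and Hspb1 and the summed CPM + 1 of the 11 immediate early genes in each day-by-sex pair; open circles are non-injured libraries, red circles wound libraries, and grey lines join a pair. Hspa1a is lower at the wound in the 4 female pairs and higher in the 4 male pairs.

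Of the small heat shock proteins, Hspb1 (Hsp27), an inducible chaperone known from vascular cells, fell at the wound. It was under its partner in each of the 8 pairs, ran from 2.30 to 37.7 CPM with a median of 15.6 on the non-injured side and from 0.0785 to 23.9 CPM with a median of 5.22 at the wound, and had a log2 change of -1.33 ± 0.31 (adjusted p = 0.0181). The endothelial markers, 6 of 6 detected, summed to 197 to 785 CPM on the non-injured side and 120 to 479 at the wound and were lower in 6 of 8 pairs, and the 5 mural cell markers were lower in 8 of 8, with 6.42 to 158 CPM against 3.07 to 57.2. The part of those cells in the Hspb1 values was not tested. Hspb11, an intraflagellar transport protein despite its name, was higher (1.04 ± 0.30, adjusted p = 0.0425) at a mean of 4.91 CPM, but it was called in only 1 of the 8 fits that left out 1 pair and not without the day 4 male pair (1.12, adjusted p = 0.115). The other 5 tested were not called. Hspb3, known from muscle, had medians of 11.1 CPM on the non-injured side and 5.41 at the wound (-0.93 ± 0.37, adjusted p = 0.13). Hspb8 (-0.08 ± 0.45) and Hspb6 (-0.05 ± 0.39) reached their highest levels, 25.7 and 24.7 CPM, in the non-injured library of day 4 males, and Hspb2 and Hspb7 averaged under 1 CPM.

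Besides Hspb1, 5 genes were lower. Dnajc6, auxilin, which uncoats clathrin vesicles at nerve endings, had 84.7 CPM in the day 4 male non-injured library, 14.4 and 13.6 in the day 14 and day 7 male non-injured ones, and at most 6.71 CPM in any wound library. It was lower in 7 of 8 pairs and at 0 on both sides in day 14 females, with a log2 change of -3.33 ± 0.41 (adjusted p = 9.02e-04). Dnajc27, a small GTPase with a J domain, was lower in 8 of 8 pairs, from 166 to 9.51 CPM in day 4 males and from 8.13 to 5.004 in day 7 females, at -1.99 ± 0.45 (adjusted p = 0.0164). Hspa12a, a distant Hsp70 relative, was lower in 8 of 8 pairs at -2.14 ± 0.56 (adjusted p = 0.0305), and so was Hspa12b, known from endothelium, at -1.87 ± 0.51 (adjusted p = 0.0249) and a mean of 0.98 CPM. Dnajc28 was lower in 7 of 8 pairs, at -1.56 ± 0.33 (adjusted p = 0.0126), and unlike the others it was highest in day 4 females, at 35.1 CPM on the non-injured side.

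The 8 neuron markers, all detected, were lower on the wounded side of every pair, with a summed 62.6 to 2983 CPM on the non-injured side and 9.91 to 153 at the wound, and were highest in the same 3 male non-injured libraries as Dnajc6. The 6 astrocyte markers reached 3464 CPM in the day 4 male non-injured library and were lower at the wound in 5 of 8 pairs, as were the 7 oligodendrocyte markers in 6. No marker of any list was at 0 in 8 or more libraries. The part of RNA from these cells in the lower genes was not tested. Without the day 4 male pair, Dnajc6 (-3.17) and Dnajc27 (-1.50) were still called, whereas Hspa12a (-1.75, adjusted p = 0.0540) and Hspa12b (-2.03, adjusted p = 0.0809) were not. Without the day 14 male pair, day 14 rested on the females, in which Dnajc6 had 0 counts, and its mean effect could not be estimated. The other fits without 1 pair all called Dnajc6, whereas Dnajc27, Dnajc28 and Hspb1 were called in 5 of the 8, Hspa12a in 3 and Hspa12b in 2. The day 4 call of Dnajc6 was lost without any 1 pair of days 1, 4 or 7, at -2.66 without the day 4 male pair and from -3.53 to -3.32 without the others.

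**Figure D5:**
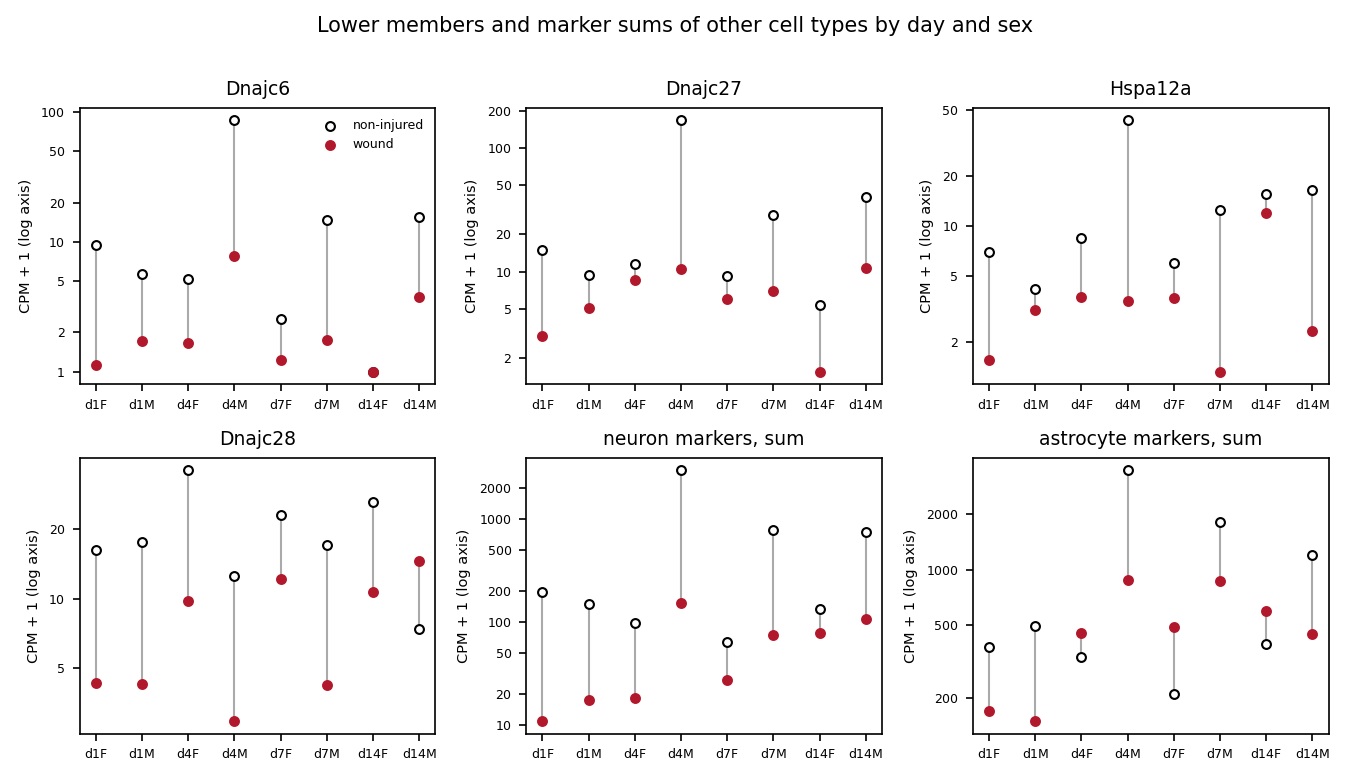
CPM + 1 (log axis) of Dnajc6, Dnajc27, Hspa12a and Dnajc28 and the summed CPM + 1 of the neuron and astrocyte markers in each day-by-sex pair; open circles are non-injured libraries, red circles wound libraries, and grey lines join a pair. Dnajc6, Dnajc27 and Hspa12a peak with the neuron markers in the day 4 male non-injured library, and Dnajc28 does not.

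Markers of blood-borne and border immune cells were mostly higher at the wound. Monocyte markers summed to 9.69 to 177 CPM on the non-injured side and 56.3 to 1030 at the wound, higher in 7 of 8 pairs, neutrophil markers to 0.0411 to 8.89 against 8.44 to 303, higher in 8 of 8, and border macrophage markers to 14.0 to 618 against 70.9 to 3152, higher in 7 of 8. The 6 T and NK cell markers were higher in 8 of 8, at no more than 15.5 CPM, and microglial markers were lower in 7 of 8. Monocyte and border macrophage sums were highest at the day 7 wound, whereas the TRiC subunits were highest in the day 1 female wound library. In that library those sums were 121 and 246 CPM, against 128 and 368 on its non-injured side, the only pair in which either was lower. Neutrophil markers there were at 94.3 against 0.511. In the day 1 male wound library the monocyte and border macrophage sums were higher, at 60.8 and 70.9 CPM against 18.9 and 23.3. The TRiC subunits were higher there too, at a median log2 ratio of 1.44. The part of any of these cells in the chaperonin values was not tested.

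Partners of the chaperones that the symbol rule leaves out were read from 6 lists with 61 genes. In the mean over days 14 were higher, 0 were lower and 47 were not called in edgeR, where 7.76% of all genes were higher and 7.96% lower, and of genes averaging 10 CPM or more 20.6% and 9.49%. The 14 of 61 thus lay near the share of these more abundant genes called higher. Genes named below were called in edgeR with TMM. The median log2 change of the 61 was 0.42, against -0.32 over all genes tested and 0.20 over genes averaging 10 CPM or more. Without the day 4 male pair 17 were higher and 1 lower (6.17% and 4.09% of all genes). It was 2 higher and 0 lower when the day 1 females were left out, 5 and 0 for the day 1 males, 3 and 0 for the day 7 females and 6 and 0 for the day 7 males, where 4.52%, 6.81%, 7.46% and 5.74% of all genes were called in either direction. With library totals alone 6 were higher and 3 lower (4.52% and 13.9% of all genes), and in the TPM fit 4 and 6 (3.82% and 11.5%). DESeq2 called 19 and 1, and 20.7% of all genes in either direction. Among the Hsp70 partners 3 of 13 rose, namely Grpel1 (0.94 ± 0.19), the exchange factor of Hspa9, Bag1 (0.91 ± 0.27) and St13 (0.67 ± 0.18). Among the Hsp90 co-chaperones 4 of 17 rose, namely Ptges3 (1.09 ± 0.21), which is p23, Stip1 (0.99 ± 0.24), which links Hsp70 to Hsp90, Cdc37 (0.96 ± 0.18), which brings kinases, and Ahsa1 (0.79 ± 0.19), which activates its ATPase. Of the 9 prefoldin subunits and TRiC partners 4 rose, namely Pfdn1 (1.09 ± 0.24), Pfdn6 (1.07 ± 0.24), Pdcl3 (0.80 ± 0.23) and Txndc9 (0.63 ± 0.18). Prefoldin hands unfolded actin and tubulin to TRiC. Of the 8 other mitochondrial genes 1 rose, Hscb (1.72 ± 0.22), a J protein of iron-sulphur cluster assembly.

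Of 8 further genes known to respond to heat shock, 2 rose. Hmox1, heme oxygenase, went from a mean of 28.03 to 919 CPM (4.09 ± 0.19, adjusted p = 7.14e-05), and Ubb, a ubiquitin gene, changed by 0.64 ± 0.14 (adjusted p = 0.0141). Of the 6 heat shock factors and their regulators edgeR called 0, with 1 at an unadjusted p under 0.05, as were 8185 of all 28597 genes. DESeq2 called 2 of the 6, where it called 20.7% of all genes. Hsf1 was at -0.37 ± 0.18 (adjusted p = 0.209, edgeR). The genes whose profile over the 16 libraries was most like the mean of Hsph1, Hsp90aa1 and Dnajb1, among 9018 searched, were Psmd7, Tsr3, Stub1, Alad and Phb, at Pearson correlations of log2(CPM + 1) from 0.93 to 0.90 that are given as a description. Pseudogenes that carry the symbol of a chaperone gene with the ending -ps drew at most 0.391% of that gene's counts, in the case of Hspd1. Pseudogenes under other names were not counted.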

How the data were processed

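Polyadenylated RNA of sorted cells was amplified with SMART-Seq v4 and made into libraries with Nextera XT, per the labels' protocols. These kits do not mark strand. Salmon 1.0.0 and DESeq2 1.26.0 are named in the submitters' processing notes, and the build and annotation behind the files were not given. Used were the authors' expected counts (estimated reads per gene, not normalized) and the TPM they deposited, in 32 columns, 2 for each of 16 groups. The columns of a group were added up and rounded. Symbols and gene types came from an authors' deposited comparison table.

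In R 4.3.3, edgeR 4.0.16 (quasi-likelihood, TMM) was fitted with a mean for each of the 8 pairs and an injury effect for each of the 4 days, to genes kept by filterByExpr with its count minimum at 10. This left 4 residual degrees of freedom, and 5.32 prior degrees were added. The sex comparison was the female minus male injury effect common to the days. CPM use TMM-scaled totals, and pair ratios have 1 CPM added. With 20864031 or more counts per library, counting error is small for genes above 5 CPM. Alternatives were median-ratio factors, library totals, no filter, an older dispersion estimate, DESeq2 1.42.0, limma 3.58.1 on log2(TPM + 1), leaving out each pair, 32 separate columns, no pair term, and each sex alone. The subunit ratios on other scales and the split at 10 CPM were added after seeing the data.

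The chaperone genes and all lists were chosen with earlier results of these data known. Named were the main cytosolic and mitochondrial chaperones and TRiC subunits, up to 8 called genes a direction averaging 5 CPM or more, and up to 4 of each list. Others were named after their values were seen. Promoters are from RefSeq (GRCm38.p6), and 76 of the 78 IDs were found in GENCODE M21.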

Additional observations from a re-analysis of the deposited data

Results flagged for a closer look

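Hspa1a was lower at the wound in 4 of 4 female pairs and higher in 4 of 4 male pairs. The difference of its injury effect, female minus male, was -2.88 on the log2 scale, with an adjusted p of 0.101 in edgeR. Hspa4l, an Hsp110 family member, showed the reverse pattern. In females it went from 3.23 to 4.67 CPM at day 1, from 7.60 to 17.1 at day 4, from 8.07 to 20.8 at day 7 and from 7.35 to 7.57 at day 14. In males it went from 5.69 to 3.96, from 71.9 to 21.8, from 27.2 to 22.7 and from 30.1 to 10.4. Its highest values were in the day 4, 7 and 14 male non-injured libraries. These also held the highest neuron marker sums, at 2983, 781 and 742 CPM. The part of RNA from neurons in the Hspa4l values was not tested. The sex difference of Hspa4l was 1.86 (adjusted p = 0.394 in edgeR, 0.271 in DESeq2), and it did not pass the threshold. Such a split of the 8 pairs by sex occurred in 2 of the 73 genes and in 0.332% of all genes tested.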

How the results depend on the processing

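Directions held better than calls. Of the 28 genes called in the mean over days, 27 kept their direction in all 19 alternatives, the exception being Dnajc13 (-0.048 on TPM). Among named genes not called in the mean over days, Hsph1 turned to -0.15 on TPM, and in the male pairs alone Hsph1 was at -0.44, Dnajb1 at 0.070 and Hspa1a at 1.29. Hspa1a ran from -0.70 to 0.13 when 1 pair was left out. The causes were not tested.

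Counts of called chaperone genes are given with the share of all genes called in the same fit. In the mean over days the count was 6 (4.52%) to 29 (14.0%) when 1 pair was left out, 12 (14.6%) in the male pairs alone and 4 (6.30%) with no pair term. The day 1 count was 0 (0%) to 12 (2.31%) when 1 pair was left out, 20 (7.12%) in DESeq2, 8 (1.61%) with library totals, 11 (1.88%) with median-ratio factors, 13 (5.2%) with the older dispersion estimate, 0 (0.211%) with no filter and 0 (0.00699%) with no pair term. The day 4 count was 0 (0%) to 2 (2.18%) when 1 pair was left out, 8 (5.03%) in DESeq2, 4 (4.70%) with the older estimate, 0 (1.12%) with limma, 0 (0.439%) with no filter and 0 (0.0175%) with no pair term. At day 7 DESeq2 called 4 (5.94%), library totals 1 (1.75%) and the older estimate 2 (4.62%), and at day 14 DESeq2 called 3 (5.81%) and the older estimate 2 (3.53%). DESeq2 called 1 gene each for day 1 against later days (0.682%), differences between days (0.546%), the sex difference (0.423%) and the wound libraries across days (1.22%). The older estimate called 1 sex difference (0.304%), and no filter called 1 gene across the wound libraries (0.993%).

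With the 32 columns taken as separate samples, near-duplicate columns stand as replicates, and calls rose for all genes. Without a replicate block the counts were 59 (63.1%) in the mean and 45 (49.4%), 46 (45.1%), 47 (62.1%) and 41 (50.9%) at days 1, 4, 7 and 14. With the replicate block they were 55 (54.1%), 36 (35.7%), 33 (33.4%), 39 (48.8%) and 28 (37.0%). Deviations of same-numbered columns correlated at -0.01 to 0.15 over the 8 pairs. As the columns of a group differ by little more than counting noise, this cannot show whether replicate numbers pair the samples. Depth limits genes under 5 CPM, and effects of single days rest on 2 pairs each.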

Other observations

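Hsph1 was above its partner in 4 of 4 female pairs, from 50.8 to 134 CPM at day 1, 26.2 to 57.3 at day 4, 14.4 to 46.2 at day 7 and 8.42 to 23.5 at day 14, whereas Hspa1a was below its partner in the same pairs. In males Hsph1 went from 30.1 to 50.4, 146 to 41.05, 80.97 to 51.8 and 43.7 to 34.99. It was thus lower at the wound in males at days 4, 7 and 14, whose non-injured libraries held the highest neuron marker sums. The part of RNA from neurons in the Hsph1 values was not tested. A fit of the 4 female pairs alone called Hsph1 (1.22, adjusted p = 0.0153, edgeR), and one of the 4 male pairs did not (-0.44, adjusted p = 0.521). The difference between the sexes was 1.94 and was not called (adjusted p = 0.284, edgeR).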
